A study of Mus musculus with 8 samples.

Results

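The basement membrane is the thin sheet of extracellular matrix on which epithelia rest. Its main components are *Col4a1* and *Col4a2*, *Lama1*, *Lamb1* and *Lamc1*, *Nid1* and *Nid2*, *Hspg2* and *Sparc*, and their transcripts were examined in mouse ES cells before and after retinoic acid (RA). Members were chosen by gene name among the probes that are not controls. The 9 genes have 13 probes on the array, of 55681 probes for 36406 named genes or transcripts in all. E14Tg2A.4 mouse ES cells were left untreated (4 arrays) or were collected after 72 h of RA (4 arrays), and each array received Cy3-labelled total RNA from one of the cultures, which the study's methods describe as biological replicates. No other allele or agent distinguishes the conditions, but all-trans RA (1 µM) was added in medium without leukemia inhibitory factor. Whether the medium of the untreated cells held this factor is not given in the sources used here, and if it did, the effect of RA and that of its withdrawal cannot be told apart. The measurement is a bulk one, in which a change in the share of cells of a type and a change of RNA per cell cannot be told apart either.

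Collagen IV is built from alpha chains that fold into a triple helix and join through their ends into a network, and the alpha 1 and alpha 2 chains form the widespread version of this collagen. Laminin is a trimer of an alpha, a beta and a gamma chain, and the trimer of *Lama1*, *Lamb1* and *Lamc1* is the laminin of the earliest embryonic basement membranes. Nidogens bind laminin to collagen IV, perlecan (the product of *Hspg2*) is a proteoglycan that carries heparan sulphate, and SPARC is a secreted protein that binds collagens. In the early mouse embryo, parietal endoderm is known for the large amounts of these proteins it lays down in Reichert's membrane.

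*Col4a1* and *Col4a2* lie head to head on mouse chromosome 8. In the RefSeq promoter table (GRCm38.p6) their annotated starts are 21 bases apart on opposite strands, and the windows from 250 bases before to 50 bases after each start share 78 bases. Both are shown because these genes changed most among the members and start from the same stretch of DNA. Capitals mark GC boxes (GGGCGG) and CCAAT boxes (CCAAT) on either strand. The *Col4a1* window is chr8:11312777-11313076 on the minus strand and the *Col4a2* window is chr8:11312555-11312854 on the plus strand.
Col4a1: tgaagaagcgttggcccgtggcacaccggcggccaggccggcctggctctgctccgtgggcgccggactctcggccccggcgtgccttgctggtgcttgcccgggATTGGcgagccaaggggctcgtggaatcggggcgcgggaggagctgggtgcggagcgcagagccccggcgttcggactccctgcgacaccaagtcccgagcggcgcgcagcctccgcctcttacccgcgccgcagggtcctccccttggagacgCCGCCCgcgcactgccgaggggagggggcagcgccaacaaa
Col4a2: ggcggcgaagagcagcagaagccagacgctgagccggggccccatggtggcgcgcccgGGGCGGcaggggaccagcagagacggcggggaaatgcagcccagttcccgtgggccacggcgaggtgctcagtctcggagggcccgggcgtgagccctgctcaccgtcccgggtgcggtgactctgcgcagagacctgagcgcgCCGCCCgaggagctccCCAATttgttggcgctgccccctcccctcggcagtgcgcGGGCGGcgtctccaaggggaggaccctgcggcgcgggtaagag

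The promoter table held 6 of the 9 members (*Col4a1*, *Col4a2*, *Lamb1*, *Nid1*, *Hspg2* and *Sparc*). A GC box was found in 5 of these 6 windows, against 35.7% of the 32851 promoters of the same length in the table, and a CCAAT box in 4, against 37.4%. The only window with neither was that of *Sparc*, which also had the lowest GC content of the 6 (55.3%, with 4 CpG), while the *Col4a1* window had 74% GC and 37 CpG and the median promoter had 52.7% GC and 7 CpG. The GATA motif AGATAA (11.2% of promoters) and the nuclear receptor motif AGGTCA (16.3%) were in none of the 6 windows on either strand. These are matches of letters in short windows. The 1 GC box of the *Col4a1* window lies in the bases shared with the *Col4a2* window and is 1 of the 3 boxes there, so this site is counted for both windows.

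Levels are given as log2 intensities with the 75th percentile of the array set to 0, and a level of one probe cannot be set against that of another. Per array 56.7% to 62.7% of spots exceeded the background clearly, no spot was saturated, and all 13 probes of the members were well above background on all 8 arrays. The number of arrays limits the precision. Where a gene has several probes the brightest on average stands for it, and a gene was called changed at an adjusted p under 0.05 and a change over 1.5-fold in limma. Over all names 13.9% were called higher and 22.1% lower after RA (36.1% in either direction), and the median log2 fold change was -0.28. This excess of lower calls depended on the scaling, since over all probes 7196 were called higher and 12044 lower here but 8152 and 8704 with quantile normalization, where the median was -0.0026. Over the names that, like the members, were well above background on all 8 arrays, 18.1% were called higher and 27.5% lower (45.6% in either direction). Of the 9 members, 6 were called higher (*Col4a1*, *Col4a2*, *Lama1*, *Lamb1*, *Hspg2* and *Sparc*), 2 were called lower (*Nid1* and *Nid2*) and *Lamc1* was not called. The median log2 fold change of the members was 1.10. Of their 13 probes 7 were called higher, 4 lower and 2 not, where over all probes 12.9% were called higher and 21.6% lower (34.6% in either direction). All 4 RA-treated arrays lay above all 4 untreated arrays for the 6 higher genes, which was so for 15.3% of all names with a value on every array, and below them for both nidogens, against 25.3% of names. As the members were chosen with earlier results known, these counts describe them and are no test of the list.

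**Figure D1:**
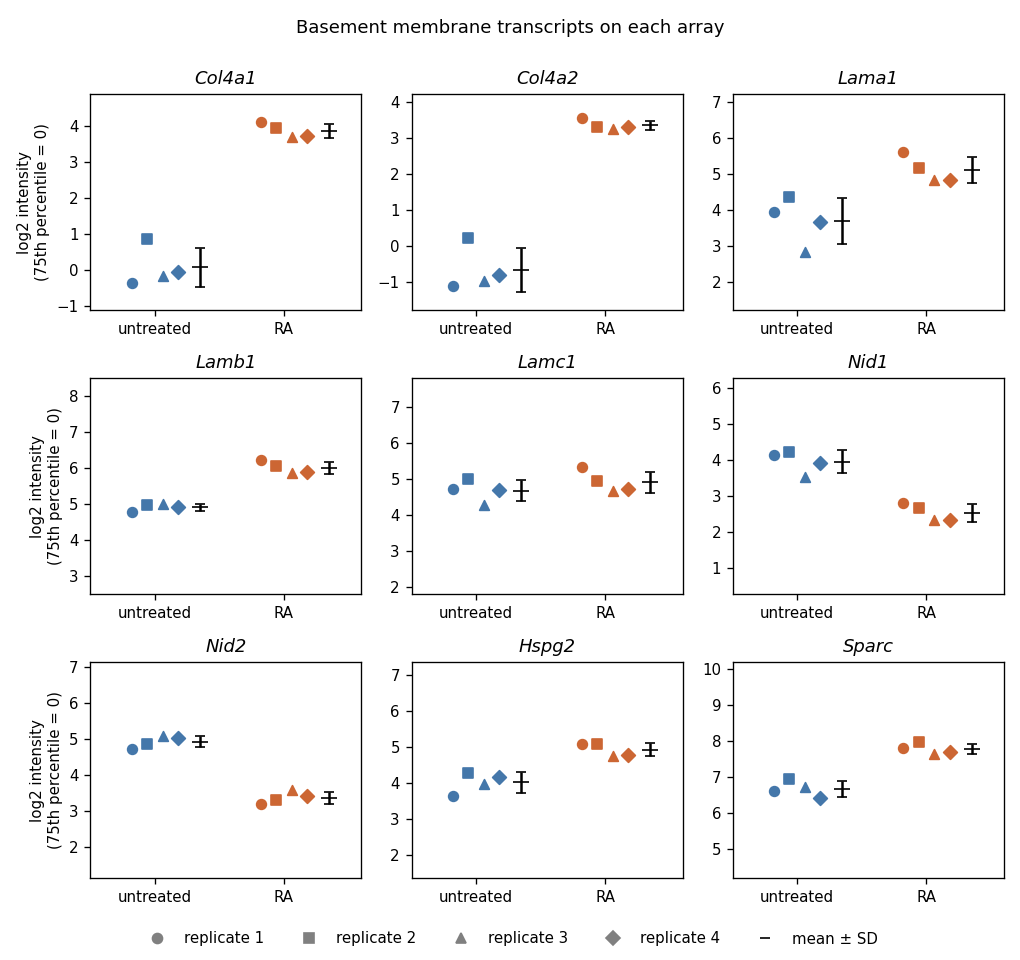
Log2 intensity of the representative probe of each gene on the 8 arrays (75th percentile of the array = 0), with a marker for each replicate number and the mean ± SD of 4 arrays in black. All panels span 6 log2 units but start at different levels. The conditions are separated for 8 genes, with both nidogens lower after RA, and overlap for *Lamc1*.

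The collagen IV chains rose most. On the untreated arrays *Col4a1* (NM_009931, probe on mm9 chromosome 8, 11199009 to 11199068, from base 5969 of the transcript) measured -0.36, 0.84, -0.17 and -0.06 for replicates 1 to 4, and on the RA-treated arrays 4.11, 3.92, 3.69 and 3.70. The lowest RA-treated array was thus 2.84 log2 units above the highest untreated one. The mean went from 0.06 ± 0.54 to 3.85 ± 0.20 (SD, n = 4), a log2 fold change of 3.79 with a standard error of 0.26 (adjusted p = 1.42e-05 from limma), or 13.8-fold with a 95% confidence interval of 9.11 to 20.9. The *Col4a1* probe is printed 10 times on each array. The SD among these spots was between 0.0355 and 0.0732 log2 units per array, which covers the noise of spots within a hybridization and not that of cultures, labelling or arrays. The lowest of these spots was at 0.76 on untreated replicate 2, and the highest on the other 3 untreated arrays was at 0.03.

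*Col4a2* (NM_009932, chromosome 8, 11448840 to 11448899) followed the same course. Its values were -1.11, 0.22, -0.97 and -0.81 without RA and 3.54, 3.31, 3.26 and 3.30 with RA. Untreated replicate 2 was again the highest of the untreated arrays. The log2 fold change was 4.02 (standard error 0.28, adjusted p = 1.44e-05 from limma), which is 16.2-fold with an interval of 10.4 to 25.2, and 358 of the 36406 names rose more. The within-array difference of the pair moved by -0.23 (*Col4a1* minus *Col4a2*, standard error 0.06, 95% interval -0.39 to -0.07), with no overlap between the conditions. The adjusted p was 0.0476 by the exact permutation test of 5 pairs described further on. This call was lost with any array other than untreated replicate 2 left out, though the difference stayed between -0.27 and -0.19. It was also lost with normexp background correction (-0.16, adjusted p = 0.0952 by the exact permutation test). With the arrays paired by number the exact test of sign changes gave p = 0.125, the smallest it allows, so that test could not keep the call.

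Of the laminin chains, alpha 1 and beta 1 rose and gamma 1 did not pass the test. *Lama1* (NM_008480, chromosome 17, 68171924 to 68171983) measured 3.92, 4.36, 2.82 and 3.66 on the untreated arrays and 5.60, 5.15, 4.83 and 4.83 after RA. Its untreated arrays were the most spread among the 9 members (SD 0.65), with replicate 3 lowest, and the gap to the RA-treated arrays was 0.47. The log2 fold change was 1.41 (standard error 0.33, adjusted p = 0.00886 from limma), or 2.66-fold with an interval of 1.58 to 4.47. *Lamb1* (NM_008482, chromosome 12, 32014411 to 32014470) was tighter, with 4.78, 4.97, 4.99 and 4.92 untreated and 6.23, 6.07, 5.87 and 5.88 after RA. It rose 2.14-fold (log2 fold change 1.10, standard error 0.14, adjusted p = 0.000359 from limma). *Lamc1* (NM_010683, chromosome 1, 155066156 to 155066215), the gamma chain shared by most laminins, measured 4.72, 5.02, 4.29 and 4.71 untreated and 5.32, 4.94, 4.68 and 4.73 after RA. These ranges overlap. Its log2 fold change was 0.23 with a 95% interval of -0.24 to 0.71 (adjusted p = 0.377 from limma), which does not show that its level was the same in both conditions.

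Whether members of one protein or family changed by different amounts was tested on their within-array differences for 5 pairs, with an exact two-sided permutation test of the 70 ways to assign 4 of 8 arrays and adjustment over the 5 pairs. The smallest p this design allows is 0.0286. The change of *Lama1* exceeded that of *Lamc1* by 1.18 (95% interval 0.73 to 1.62) and the change of *Lamb1* exceeded it by 0.87 (0.43 to 1.30). In these 2 pairs, as for the collagen IV pair, the conditions did not overlap and the adjusted p of the exact permutation test was 0.0476. For *Lama1* against *Lamb1* the difference was 0.31 with an interval of -0.56 to 1.19, and for *Nid1* against *Nid2* it was 0.13 with an interval of -0.62 to 0.88 (adjusted p = 0.657 for both by the exact permutation test). With an array other than untreated replicate 2 left out, the calls of the 3 pairs were lost (adjusted p between 0.0714 and 0.0952 by the exact permutation test of 4 arrays against 3), and the differences kept their signs. With normexp background correction the 2 laminin calls were lost too (both adjusted p = 0.0714 by the exact permutation test). The differences were then 1.16 for *Lama1* minus *Lamc1* and 0.86 for *Lamb1* minus *Lamc1*. As the adjustment runs over the 5 pairs, the call of each pair depends also on the p of the others. Paired by replicate number the 3 differences had p = 0.125 in an exact test of sign changes, the smallest that 4 pairs allow.

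**Figure D2:**
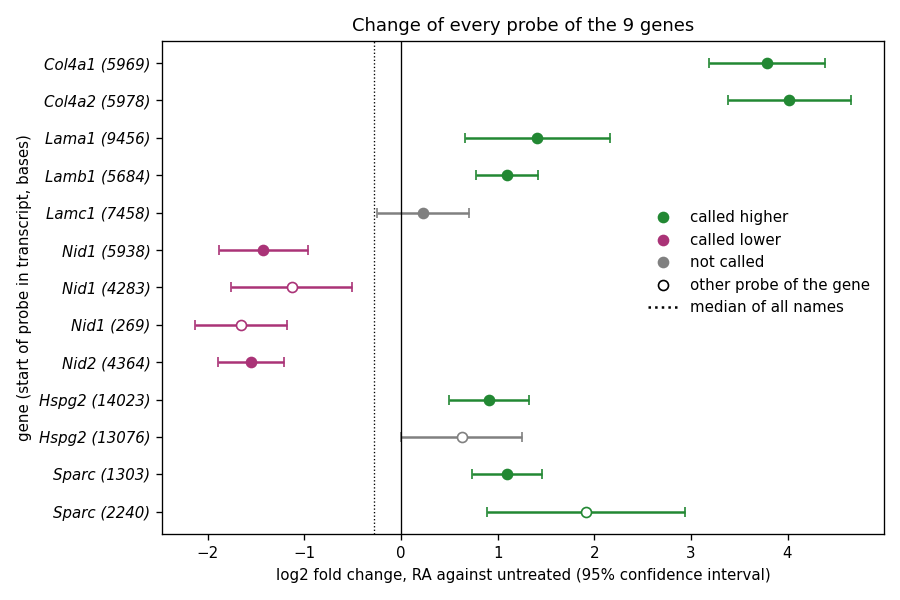
Log2 fold change (RA against untreated) of the 13 probes of the 9 genes with 95% confidence intervals from limma, labelled by the base of the transcript at which the probe starts. Open circles are further probes of a gene, and the dotted line at -0.28 is the median of all names. Both collagen IV chains stand at 3.79 and 4.02, and all 4 nidogen probes lie below 0.

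The nidogens fell. *Nid1* (NM_010917, chromosome 13, 13604435 to 13604494) measured 4.16, 4.24, 3.53 and 3.94 on the untreated arrays and 2.81, 2.69, 2.33 and 2.34 after RA. The conditions were 0.72 log2 units apart at their nearest arrays, and the log2 fold change was -1.42 (standard error 0.20, adjusted p = 0.000617 from limma), a 2.68-fold decrease. *Nid1* has 3 probes, which start at bases 269, 4283 and 5938 of the transcript, so that the decrease can be read at separate places along it. The probe at base 269 is shown because its 60 bases span 25855 bases of genomic DNA (chr13:13530138-13555992, mm9, plus strand) and hence bridge an intron.
Nid1 probe: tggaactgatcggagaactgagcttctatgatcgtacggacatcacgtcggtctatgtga

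This probe went from -2.37 ± 0.14 to -4.02 ± 0.40 (SD, n = 4), a log2 fold change of -1.65 (adjusted p = 0.00032 from limma), and the probe at base 4283 had -1.13 (adjusted p = 0.0112). The 95% intervals of the 3 probes overlap. *Nid2* (NM_008695, chromosome 14, 20630490 to 20630549) measured 4.74, 4.86, 5.09 and 5.03 without RA and 3.20, 3.30, 3.59 and 3.44 with RA. Each RA-treated array was at least 1.16 below each untreated one. The log2 fold change was -1.55 (standard error 0.15, adjusted p = 7.39e-05 from limma), a 2.93-fold decrease.

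*Hspg2*, the perlecan gene, and *Sparc* rose, by 1.88-fold and 2.14-fold. For *Hspg2* (NM_008305, chromosome 4, 137126392 to 137126451) the untreated arrays gave 3.63, 4.28, 3.97 and 4.17 and the RA-treated arrays 5.08, 5.08, 4.76 and 4.77, with no overlap (log2 fold change 0.91, standard error 0.18, adjusted p = 0.00411 from limma). Its second probe, from base 13076, gave a log2 fold change of 0.63 with an interval of -0.0002 to 1.26 and was not called (adjusted p = 0.107 from limma). Its conditions overlapped, and its untreated arrays were spread (SD 0.59) with replicate 1 lowest at -2.11. *Sparc* (NM_009242, chromosome 11, 55208939 to 55208998) measured 6.61, 6.95, 6.74 and 6.43 untreated and 7.81, 7.96, 7.65 and 7.70 after RA. These do not overlap (log2 fold change 1.10, standard error 0.16, adjusted p = 0.000686 from limma). The second *Sparc* probe, from base 2240, also passed the test, with 1.91 and an interval of 0.89 to 2.94.

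Within a condition, the same arrays were often high or low for several members. Untreated replicate 2 had the highest value of the untreated arrays for 7 of the 9 members, the exceptions being *Lamb1* and *Nid2*, with deviations from the condition mean of up to 0.89. Among RA-treated arrays, replicate 3 had the lowest value for 8 members and the highest for *Nid2*, and replicate 1 the highest for 6. Replicate 4 lay close to replicate 3, with median deviations of -0.15 and -0.165 and 1 member above the mean on each. The spread among the RA-treated arrays was smaller than among the untreated arrays for the collagen IV chains (SD 0.20 against 0.54 for *Col4a1* and 0.13 against 0.60 for *Col4a2*), a difference that was not tested. Each of the 2 slides carried 2 untreated and 2 RA-treated arrays. Within slide 1 the log2 fold changes of *Col4a1*, *Col4a2*, *Lama1*, *Lamb1* and *Lamc1* were 4.17, 4.46, 1.84, 1.17 and 0.52, and within slide 2 they were 3.41, 3.58, 0.98, 1.03 and -0.05. For *Nid1*, *Nid2*, *Hspg2* and *Sparc* they were -1.27, -1.60, 1.13 and 1.08 within slide 1 and -1.58, -1.51, 0.69 and 1.12 within slide 2. All members but *Lamc1* thus changed in the same direction on both slides, and with the slide as a block the calls of the 9 members were the same.

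**Figure D3:**
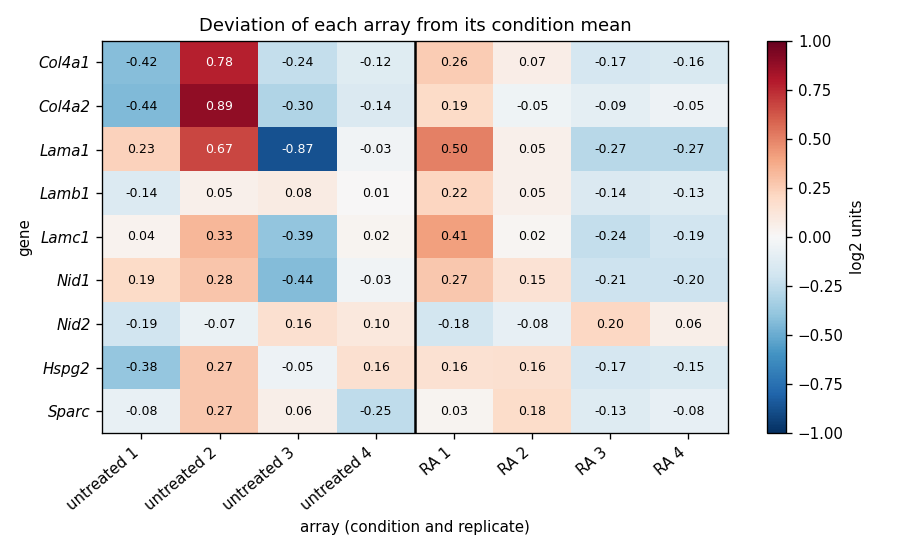
Deviation of each array from the mean of its condition for the 9 genes, in log2 units. Untreated replicate 2 is above its condition mean for 8 genes and reaches 0.89 for *Col4a2*. RA-treated replicates 3 and 4 are below their condition mean for all genes but *Nid2*.

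The rest of the basement membrane was read from 5 gene lists with 62 genes, all of them on the array. Of these, 39 were called higher and 3 lower, with a median log2 fold change of 1.19. Over all names 13.9% were called higher and 22.1% lower, and these shares stand behind the count of each list too. The other collagen IV chains were all called higher. *Col4a6*, whose gene pairs with that of *Col4a5* as *Col4a1* pairs with *Col4a2*, went from well above background on no untreated array (mean -6.28) to 0.66 ± 0.47 after RA, an increase of at least 72.8-fold. For this bound, the untreated level on each array was taken as the dimmest signal that still counted as well above background there, or as the signal of *Col4a6* where that was higher. *Col4a5*, well above background on 3 of the 4 untreated arrays, rose by 4.96 on the log2 scale (standard error 0.31, adjusted p = 9.1e-06 from limma). *Col4a3* was well above background on no array, so its call carries no fold change. Only 2 of the 4 other chains were called without untreated replicate 2, with normexp background correction and on the log2 values processed by the authors.

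Among the other laminin chains 6 of 8 were called higher and 1 lower, with a median log2 fold change of 1.28. *Lamb2*, a beta chain that can take the place of *Lamb1*, rose by 2.17 (standard error 0.21, adjusted p = 7.17e-05), *Lama4* by 1.87 and *Lama2* by 1.73, although the *Lama2* arrays of the conditions overlapped and *Lama2* was well above background on 3 untreated arrays. *Lama3*, the alpha chain of the laminin under stratified epithelia, was the only laminin chain called lower and changed by -2.35 (standard error 0.22, adjusted p = 6.49e-05 from limma). Without untreated replicate 1 only 3 chains of this list were called higher. In the list of 20 other basement membrane proteins 13 were called higher and 1 lower, with a median of 1.46. *Smoc2*, a secreted relative of SPARC, had a log2 fold change of 7.85 (well above background on 2 untreated arrays), *Frem1* of 5.24 (on 1) and *Fras1* of 4.27 (on all 4). *Frem1* and *Fras1* encode matrix proteins that act together at the base of embryonic epithelia. The gene called lower, *Egfl6*, was well above background on no array.

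Enzymes that fold, modify and crosslink collagen IV included 10 of 18 genes called higher and none called lower by limma, where 2 genes had an adjusted p under 0.05 but a decrease of less than 1.5-fold. These are *Lepre1* (-0.50), of whose 2 detected probes 1 moved the opposite way, and *Glt25d1* (-0.49), both named after their values were seen. Peroxidasin (*Pxdn*), which makes the sulfilimine crosslinks between collagen IV ends, went from 0.78 ± 0.06 to 4.63 ± 0.11 (SD, n = 4), a 14.4-fold increase (adjusted p = 1.02e-06 from limma). The prolyl hydroxylase *Leprel1* rose by 4.55 on the log2 scale, from well above background on 1 untreated array, and the lysyl oxidase relative *Loxl2* by 3.48. The collagen chaperone *Serpinh1* (HSP47), singled out after its value was seen, rose 10.1-fold. *Plod2* and *Plod3*, which hydroxylate lysines of collagen and were also picked after their values were seen, had log2 fold changes of -0.05 and -0.06 and were not called. Of 12 receptors for laminin and collagen IV, 6 were called higher and 1 lower. *Itga3*, an integrin subunit of laminin receptors, rose by 3.35, its partner *Itgb1* by 2.17 and the syndecan *Sdc1* by 1.50, and the syndecan *Sdc4* changed by -1.63.

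**Figure D4:**
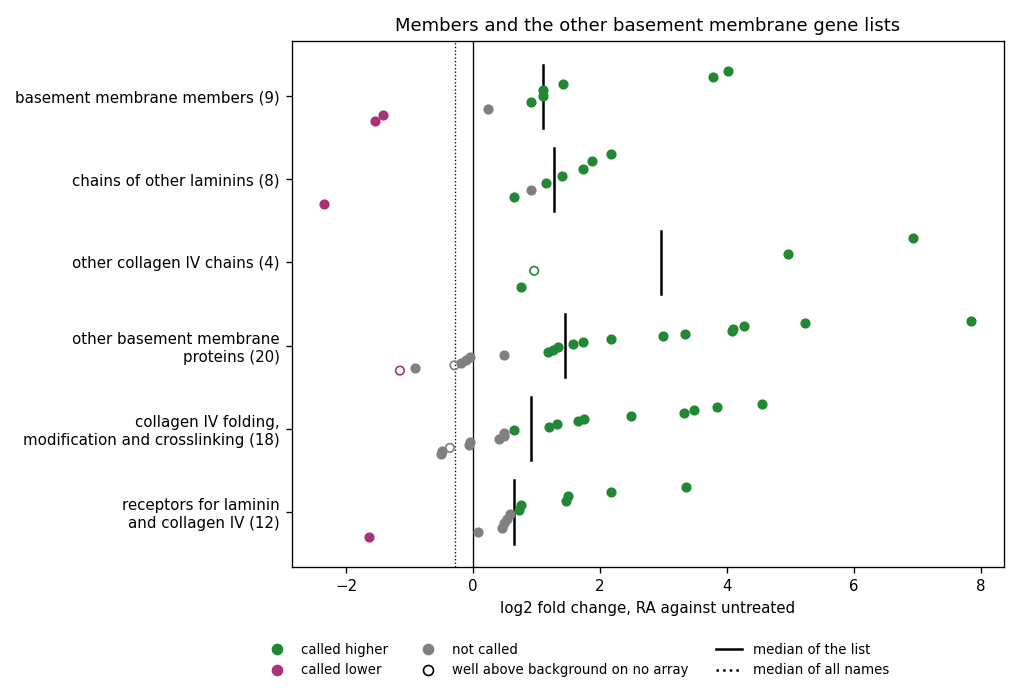
Log2 fold change (RA against untreated) of the 9 members and of 62 other basement membrane genes in 5 lists, ordered within each list, with the number of genes in brackets. Black bars are list medians (0.65 for the receptors to 2.96 for the other collagen IV chains), the dotted line is the median of all names at -0.28, and open circles are genes well above background on no array.

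Markers of cell types moved with these changes. The summed level of a marker list adds different probes on the linear scale, so that its brightest probes carry it. All 8 markers of pluripotent cells were well above background on all arrays and were called lower, although 1 of the 2 detected probes of *Nanog* moved the opposite way, with their summed level (on the linear scale, with the 75th percentile at 1) between 449 and 624 untreated and between 45.6 and 120 after RA. All 8 primitive endoderm markers were called higher, from *Gata4* (1.31 on the log2 scale) to *Foxa2* (5.03), with the summed level going from between 1.41 and 2.50 to between 22.8 and 38.2. Of 10 parietal endoderm markers 9 were called higher, with *Krt8* at 5.63 and *Snai1* not called (0.76, adjusted p = 0.0693 from limma), and the sum, in which *Krt18* was the brightest probe in both conditions (mean log2 level 3.27 untreated and 8.40 after RA), went from between 13.2 and 25.9 to between 507 and 633. Visceral endoderm markers were mixed, with 3 of 8 higher (*Ttr* at least 43.1-fold), 1 lower (*Rhox5* by -0.75) and *Apoa1* well above background on no array. Their sum went from between 58.8 and 73.7 to between 38.5 and 53.3, but it was carried mainly by *Rhox5* (mean log2 level 5.99 untreated and 5.24 after RA) and does not show the rise of *Ttr*, *Afp* and *Cubn*. Fibroblast and mesenchyme markers were called higher in 6 of 8 cases, with *Col3a1* at 7.05 (well above background on 3 untreated arrays), *Fap* well above background on no array and sums from between 1.26 and 2.12 to between 21.0 and 38.9. The 5 smooth muscle markers were all called higher, from *Myh11* (2.89, well above background on 1 untreated array) to *Acta2* (9.19), with sums from between 2.20 and 3.93 to between 255 and 469. Of 5 endothelial markers none was called higher and 2 were called lower, with *Pecam1* at -2.96 and *Cdh5* well above background on no array (sums 2.81 to 3.81 and 1.75 to 2.39), and of 6 neural markers 1 was higher (*Nes*, 2.10) and 2 lower (*Neurod1* at least 38.2-fold, sums 6.99 to 9.82 and 10.2 to 11.3). The part of any of these cell types in the change of the members was not tested. On untreated replicate 2, where the collagen IV chains were high, the summed parietal endoderm markers, mainly keratins, were at 19.9, within the range of the other untreated arrays. The summed primitive endoderm markers were at 2.50 there, level with untreated replicate 1 and above the other 2 arrays (1.41 and 1.48). The sum of untreated replicate 1 includes a high *Foxa2* value (log2 level 0.0090, against -1.04 to -0.91 on the other untreated arrays). The summed fibroblast and mesenchyme markers were at 2.12 on untreated replicate 2, 2.05 on untreated replicate 3, and 1.26 and 1.31 on the other arrays. Their part in the high collagen IV values of that array was not tested. On the RA-treated arrays, more members lay above the condition mean on replicates 1 and 2 (8 and 7) than on 3 and 4 (1 each). For replicates 1 to 4 the sums were 625, 633, 507 and 553 for parietal endoderm and 38.9, 37, 21 and 27.1 for fibroblasts and mesenchyme. Those for smooth muscle were 469, 429, 285 and 255. Primitive endoderm ran the other way, with 28.3, 22.8, 38.2 and 35.5. The part of any list in these differences was not tested. No marker list holds a member.

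The mean profile of the 9 members averages genes that rose, genes that fell and *Lamc1*, and no single member need follow it. Among genes well above background on all 8 arrays, the 5 nearest to this mean profile, each centred on its untreated mean, were *Eml3*, a transcript with an Ensembl identifier only, *Flii*, *Atp6v0a1* and *Rod1*, at a root mean square distance over the 8 arrays of 0.0757 to 0.11 log2 units. *Eml3* encodes a protein that binds microtubules, *Flii* an actin-binding protein and *Atp6v0a1* a subunit of the proton pump of vesicles, and their log2 fold changes were 1.07, 1.01 and 1.04.

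**Figure D5:**
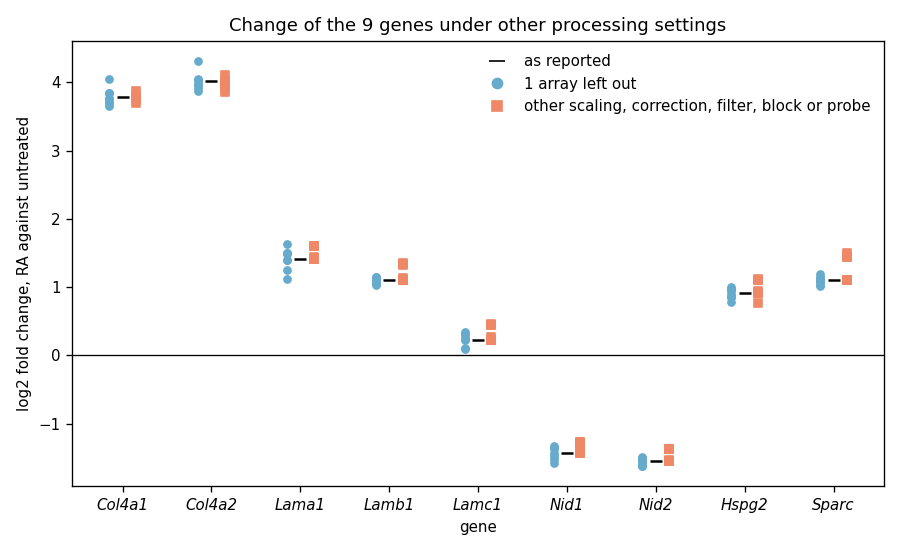
Log2 fold change of each member as reported (black bar), with each array left out in turn (circles) and under the other scalings, corrections, filter, blocks and probe choice (squares). *Lamc1* lies between 0.10 and 0.46 and no other member comes near 0.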

How the data were processed

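RNA from 4 untreated and 4 RA-treated cultures of E14 ES cells was measured on 1-colour Agilent arrays. The authors deposited Feature Extraction output (version 10.7.3.1), with the intensity of each spot corrected for background but not normalized between arrays, its raw and background intensity, and other flags of 0 or 1. The authors also deposited log2 values of these spots with equal distributions on all arrays, whose background correction is not given in the sources used here.

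The log2 processed intensity minus the 75th percentile of each array over 59305 spots was used without the 3671 control spots and 124 to 145 outlier spots per array. Spots of a probe were averaged. Conditions were compared with limma (version 3.58.1, R version 4.3.3) over 55681 probes with Benjamini-Hochberg adjustment, and calls required a change over 1.5-fold. Genes took the names and mm9 positions of the files. Promoters and 1 gene name came from RefSeq (GRCm38.p6). Named genes were all members, the 3 largest called rises and falls of each list, the extremes of each marker list and the 5 nearest profiles. *Serpinh1*, *Plod2*, *Plod3*, *Lepre1*, *Glt25d1*, *Apoa1*, *Krt18*, *Afp*, *Cubn* and *Nanog* were named outside this rule, after their values were seen. The members and lists were chosen with earlier results of these data known.

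Same-numbered arrays deviated together (correlations of 0.186, 0.189, 0.104 and 0.151 for replicates 1 to 4 over 27493 probes), all above 0.1. The label numbers were therefore taken as pairs in an alternative only, and the main tests were not paired. The highest correlations with another number were 0.142, 0.0366, 0.13 and 0.142, so replicate 3 correlated better with another number than with its own. On simulated data for RA against untreated with 55640 probes, 75 of 100 probes changed by 2 log2 units and 21 of 100 changed by 1 passed the call rule, as did 2 that had not been changed. Only these few probes were changed in the simulation, while 34.6% of all probes were called in the data. The adjustment was therefore stricter in the simulation, and its shares do not give the share of changes found in the data. The alternatives comprised quantile normalization, normexp background correction (offset 50), both, the authors' log2 values, a filter on dim probes, slide and replicate blocks, the mean of all detected probes, and each array left out.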

Additional observations from a re-analysis of the deposited data

Results flagged for a closer look

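For the named genes 104 sets of 4 arrays of a condition were screened with Dixon's test for a single distant array. In 11 of them an array passed the 95% critical value, and chance alone gives about 1 in 20 sets, or 5.2. Of the members only *Col4a2* was among them, with RA-treated replicate 1 at 3.54 against 3.26 to 3.31 on the other RA-treated arrays.

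Among the gene lists, *Col4a6* stood at 1.36 on RA-treated replicate 4 against 0.38 to 0.46, *Itga3* at -1.61 on untreated replicate 1 against -0.42 to -0.30, and *Itgb1* at 3.097 on RA-treated replicate 1 against 2.74 to 2.75. *Lama3* was at -1.44 on untreated replicate 2 against -0.59 to -0.50 and at -3.25 on RA-treated replicate 4 against -3.08 to -3.07. *Egfl6*, which is dim on all arrays, was at -7.90 on RA-treated replicate 3 against -6.64 to -6.56. Among the markers, *Foxa2* was at 0.0090 on untreated replicate 1 against -1.04 to -0.91, *Ttr* at -1.40 on RA-treated replicate 2 against 0.15 to 0.22, *Acta2* at -1.54 on untreated replicate 3 against -2.60 to -2.57, and *Neurod1* at -7.78 on RA-treated replicate 4 against -5.94 to -5.63. All values are log2 intensities relative to the 75th percentile.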

How the results depend on the processing

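In each of 16 alternatives the same 6 members were called higher and the same 2 lower, and *Lamc1* was not called (adjusted p between 0.0777 and 0.723). The replicate block changed no call of a member, with a log2 fold change of 3.79 for *Col4a1*. Genes of the lists called higher (39) lay between 36 and 41, or between 31 and 39 with 1 array left out. The scaling moved the median of all probes from -0.28 to -0.0026 with quantile normalization. Probes called lower (12044) numbered 6603 with normexp and quantile normalization and 6583 on the authors' values, and the cause was not tested. The split of higher against lower calls went from 7196 against 12044 to 8152 against 8704 with quantile normalization, 5442 against 8827 with normexp background correction, 6305 against 6603 with both and 6275 against 6583 on the authors' values.

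With normexp background correction the pair differences were -0.16 (*Col4a1* minus *Col4a2*, adjusted p = 0.0952 by the exact permutation test), 1.16 (*Lama1* minus *Lamc1*) and 0.86 (*Lamb1* minus *Lamc1*, both adjusted p = 0.0714). With the replicate block they were -0.23, 1.18 and 0.87 with p = 0.125 by exact sign changes, a test too small to pass. With 1 array left out they lay between -0.27 and -0.19, 1.02 and 1.29, and 0.77 and 1.02, while *Lama1* minus *Lamb1* lay between -0.0037 (without untreated replicate 3) and 0.52 and *Nid1* minus *Nid2* between -0.0715 (without untreated replicate 3) and 0.26, with -0.0233 without RA-treated replicate 1, so these 2 changed sign. For genes well above background on no array of a condition the arrays give only a bound, and for those on some arrays (*Smoc2*, *Frem1*, *Leprel1*, *Myh11*, *Afp*, *Col4a5*, *Lama2*, *Col3a1*) the fold changes rest partly on dim signals.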
